A study of Mus musculus with 16 samples.

Results

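Transcripts of the mitochondrial respiratory chain were compared between D1 medium spiny neurons with and without miR-128-2. The members were all probe sets whose only platform symbol begins with Ndufa, Ndufb, Ndufc, Ndufs, Ndufv, Sdha to Sdhd, Uqcr, Cox4, Cox5, Cox6, Cox7, Cox8 or Atp5. This gave 168 of 37112 probe sets and 86 of 16206 genes. Complex I held 42 genes, complex II 4, complex III 8, complex IV 15 and complex V 17. Of the 86 genes, 78 were counted as subunits by their symbols alone. The other 8 are complex I assembly factors, Ndufaf1 to Ndufaf8, whose symbols share the prefix Ndufa. They were kept, and complex I is also given without them. Ndufa4, counted under complex I by its symbol, is now regarded as a subunit of complex IV.

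The deletion mice carried a homozygous deletion of miR-128-2 restricted to D1 neurons together with a ribosome tag in those cells. The control mice were littermates with the tag alone. All mice were C57BL6/J and 3 months old, and every array measured RNA bound to tagged polysomes of the dissected striatum. Of the 9 deletion mice, 5 belonged to experimental repeat 2 and 4 to repeat 1, and of the 7 controls, 3 belonged to repeat 2 and 4 to repeat 1. The titles call them biological replicates. Anything besides the microRNA deletion that only the deletion mice carried, such as a Cre driver, cannot be told apart from it. Values are log2 with each probe set's median set to 0, so they show which mouse had more or less of a transcript and not how abundant it was. Precision is limited by how many arrays there are.

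The respiratory chain passes electrons from NADH and succinate to oxygen in the inner mitochondrial membrane and uses the energy to pump protons, which drive ATP synthesis. Complex I oxidises NADH, complex II oxidises succinate, complex III passes electrons from ubiquinol to cytochrome c, complex IV reduces oxygen, and complex V makes ATP. Most subunits are encoded in the nucleus and translated on cytosolic ribosomes, where tagged polysomes can capture their mRNA, whereas the subunits encoded by mitochondrial DNA are translated inside the organelle. Firing and synaptic transmission make neurons depend heavily on this pathway.

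The deleted locus gives the mature microRNA below, taken from RefSeq (GRCm38.p6). It lies on the minus strand of chr9:112118644-112118664, and the capitals mark the seed, bases 2 to 8, with which a microRNA pairs to its targets. It is shown because its locus was the one deleted. The same mature sequence also comes from the miR-128-1 locus, which the labels do not name as deleted. The arrays did not measure the microRNA, and matches to the seed in the members' transcripts were not searched.
mmu-miR-128-3p: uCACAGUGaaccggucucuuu

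Several arrays stood apart. Over 12 measured oligodendrocyte markers, the deletion arrays lay between -0.36 and 0.39 and the control arrays between -0.32 and 1.60. The 2 highest were control repeat 1 replicate 3, at 1.60, and control repeat 2 replicate 1, at 1.47. The 3′ minus 5′ signal of control probe sets (Gapdh and beta-actin), a sign of RNA quality, was highest on control repeat 2 replicate 1 at 1.82, followed by deletion repeat 2 replicate 2 at 1.17, with at most 0.41 elsewhere. Differences of named members that moved by over 1.5 times without the 2 control arrays high in oligodendrocyte markers are given without them too, beside the value or with the other members of the complex. Because the values are centred, the identity of the captured cells could not be checked against absolute marker levels. The 6 measured D1 markers averaged between -0.04 and 0.24 on deletion arrays and between -0.27 and 0.07 on control arrays. Fewer cells of a type and less RNA per cell cannot be told apart in such samples.

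No respiratory chain gene was called different between deletion and control mice. Differences of the 86 genes ran from -0.13 to 0.26 log2, or 0.911-fold to 1.198-fold. The test was limma with genotype and experimental repeat as terms and Benjamini-Hochberg adjustment over all genes, called at an adjusted p under 0.05. It called 0 of 86 members, where 0.0617% of all genes were called, and the smallest adjusted p among members was 0.566. Over probe sets the count was 0 of 168, where 0.0323% of all probe sets were called, with a smallest adjusted p of 0.443. At an unadjusted p under 0.05, 0 members were higher and 1 was lower, where 4.97% of all genes were higher and 3.71% lower. Among probe sets 2 of 168 were higher and 3 lower at this level, where 3.71% of all probe sets were higher and 3.13% lower. The p-value per probe set in the authors' deposited table was under 0.05 for 5 of the 168, with a smallest value of 0.0033.

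**Figure D1:**
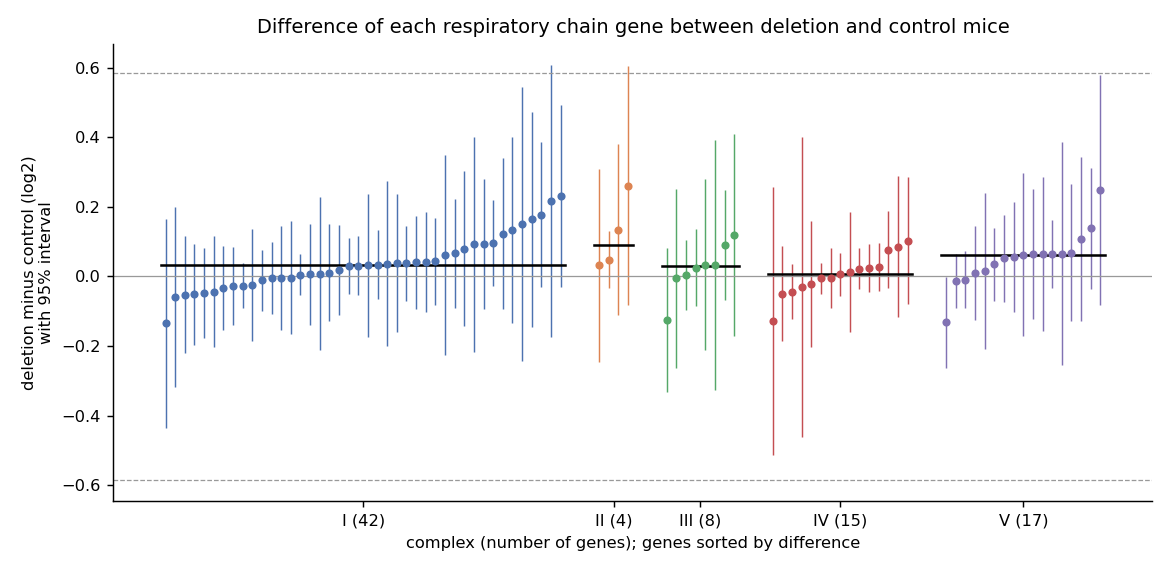
Difference of each of the 86 genes between deletion and control mice (points, log2) with its 95% interval from limma (bars), grouped by complex and sorted by difference. Black lines are the medians of each complex, which lie between 0.01 and 0.09, and dashed lines mark 1.5-fold in either direction.

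The intervals set a limit on what could have been missed in the mean over a gene's probe sets. For 84 of 86 members the 95% interval of the difference lay within 1.5-fold in both directions, as it did for 92.4% of all genes. The 2 exceptions were Sdhc and Ndufaf7, whose intervals reached 1.52-fold higher in deletion mice. A difference on a single probe set can be averaged out in such a mean. Of the 49 members with several probe sets, 28 had probe sets on both sides of 0. Atp5a1 is among the 84, although 1 of its 3 probe sets differed by -0.43 log2. A narrow interval has no meaning for a transcript that was not detected, and detection cannot be judged from centred values. Cox5a, Cox6b2, Cox7b2, Cox7c, Cox8b, Ndufa12 and Ndufb8 varied little once genotype and repeat were fitted, with a residual SD under 0.065, where 25% of all genes lay. Their small errors are no evidence of unchanged expression. Of the other 79 members, 77 had an interval within 1.5-fold.

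In complex I, 28 genes had a positive difference and 14 a negative one, with a median of 0.03 log2. Ndufs1, the largest subunit and carrier of iron-sulfur clusters, lay at -0.75, -0.08 and 0.26 on the deletion arrays (lowest, median and highest) and at -0.51, 0.05 and 0.19 on the control arrays. The groups overlapped over most of their range, and the difference was -0.13 ± 0.14 log2 (SE). It was -0.22 without control repeat 2 replicate 1, -0.030 without deletion repeat 1 replicate 4 and -0.24 ± 0.15 without the 2 control arrays high in oligodendrocyte markers. Ndufv1, the flavoprotein that binds NADH, lay at -0.17, -0.05 and 0.11 on deletion arrays and at -0.38, 0.03 and 0.31 on control arrays. The deletion values lay within the range of the control values, and the difference was -0.04 ± 0.07. Without the same 2 control arrays it was -0.14 ± 0.06 (unadjusted p = 0.032, adjusted p = 0.98 by limma). Over all arrays the 3 probe sets of Ndufv1 differed by -0.12 to 0.10, on both sides of 0. The 6 core genes measured, Ndufs1, Ndufs3, Ndufs7, Ndufs8, Ndufv1 and Ndufv2, had a median difference of -0.04, with 2 above 0 and 4 below.

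Accessory subunits surround the core of complex I. Among them Ndufa8 had the largest difference of the complex. Its values were -0.27, 0.01 and 0.37 on deletion arrays and -0.90, -0.01 and 0.19 on control arrays. The medians nearly coincided, and the lowest control value was that of control repeat 2 replicate 1. The difference was 0.23 ± 0.12 log2 (unadjusted p = 0.079, adjusted p = 0.64 by limma), and 0.05 ± 0.09 without the 2 control arrays high in oligodendrocyte markers. Ndufb10 differed by 0.18 ± 0.10 (deletion arrays -0.54, 0.10 and 0.51, control arrays -0.58, -0.17 and 0.13), or 0.09 without those arrays. Ndufa2 was at 0.10 ± 0.06 and Ndufb8 at -0.03 ± 0.03, or -0.05 ± 0.03 for Ndufb8 without those arrays. All 3 overlapped between the groups.

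The 8 assembly factors, which help build complex I without remaining in it, all had positive differences, with a median of 0.11 log2. The differences ranged from 0.04 for Ndufaf5 to 0.22 for Ndufaf7. That of Ndufaf4 was the mean of 2 probe sets of opposite sign, at -0.12 and 0.31. None of the 8 factors was called, and their median was 0.23 in repeat 2 and 0.04 in repeat 1. Without the 2 control arrays high in oligodendrocyte markers it was -0.03, with 3 above 0 and 5 below. Complex I without these factors had a median of 0.01, with 20 above 0 and 14 below.

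Complex II, the only entry point for electrons from succinate and also an enzyme of the citric acid cycle, had 4 positive differences of 4 and the highest median of the complexes, 0.09 log2. Sdha, the flavoprotein with the succinate site, lay at -0.05, 0.00 and 0.13 on deletion arrays and at -0.19, 0.00 and 0.05 on control arrays, a difference of 0.05 ± 0.04. Sdhb, the iron-sulfur subunit, lay at -0.71, 0.01 and 0.27 on deletion arrays against -0.65, -0.01 and 0.34 on control arrays, a difference of 0.03 ± 0.13. For both genes the medians of the groups were the same to within 0.03.

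The membrane anchors Sdhc and Sdhd showed larger gaps. Sdhc lay at -0.62, 0.01 and 0.78 on deletion arrays and at -0.77, -0.21 and 0.10 on control arrays. Its difference was 0.26 ± 0.16 log2 (95% interval -0.08 to 0.60, unadjusted p = 0.13, adjusted p = 0.72 by limma), and it was 0.50 in repeat 2 and 0.03 in repeat 1. Sdhd differed by 0.13 ± 0.11. The arrays with the lowest complex II medians among controls were those high in oligodendrocyte markers, at -0.50 and -0.27. Without them Sdha was at 0.00 ± 0.03, Sdhb at -0.10 ± 0.13, Sdhc at 0.07 ± 0.14, Sdhd at -0.00 ± 0.10, and the complex median was -0.00, with 2 above 0 and 2 below.

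In complex III, 6 genes were above 0 and 2 below, with a median of 0.03 log2. Uqcrfs1, the Rieske iron-sulfur protein, lay at -0.67, -0.05 and 0.38 on deletion arrays and -0.92, 0.05 and 0.34 on control arrays. The difference was 0.03 ± 0.17, a small fraction of the spread within either group. The core proteins Uqcrc1 and Uqcrc2 differed by -0.01 ± 0.12 and -0.13 ± 0.10. Uqcrfs1 was at -0.13 ± 0.16 and Uqcrc1 at -0.13 ± 0.11 without the 2 control arrays high in oligodendrocyte markers. Uqcr10, a small accessory subunit, was at 0.12 ± 0.14, with -0.11 in repeat 2 and 0.33 in repeat 1.

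Uqcrc2 was measured by 2 probe sets that differed unequally. On 1435757_a_at the difference was -0.25 ± 0.07 log2 (unadjusted p = 0.0032, adjusted p = 0.44 by limma over all probe sets), and on 1428631_a_at it was 0.00 ± 0.16. The value of 0.44 was the smallest adjusted p of the 168 probe sets.

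In complex IV, 8 genes were above 0 and 7 below, with a median of 0.01 log2. Cox4i1, the common isoform of a regulatory subunit, lay at -0.18, 0.05 and 0.25 on deletion arrays and at -0.48, -0.05 and 0.12 on control arrays, a difference of 0.10 ± 0.09. Without the 2 control arrays high in oligodendrocyte markers it was -0.01 ± 0.06. Cox5a, a matrix-side subunit, was at 0.03 ± 0.03, and at -0.01 ± 0.03 without them.

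Several complex IV subunits come as a widely expressed isoform and one of heart and skeletal muscle or testis. Cox6a1 and its heart and muscle form Cox6a2 differed by -0.02 ± 0.08 and -0.03 ± 0.20 log2. Cox6b1 and its testis form Cox6b2 differed by -0.05 ± 0.06 and 0.02 ± 0.03. Cox7a2 and the heart and muscle form Cox7a1 differed by 0.01 ± 0.08 and -0.04 ± 0.04, and Cox8a and the muscle form Cox8b by -0.13 ± 0.18 and 0.01 ± 0.03. Without those arrays Cox6a2 was at 0.09 ± 0.22, Cox7a2 at -0.04 ± 0.09, Cox7a1 at -0.02 ± 0.04 and Cox8b at -0.00 ± 0.03. None of these passed, and levels of the isoforms cannot be set against each other on centred values. Cox8a was uneven between the repeats, at -0.48 in repeat 2 and 0.20 in repeat 1, with deletion arrays from -0.93 to 0.49 and control arrays from -0.24 to 0.49. Cox4i2 was not analysed here.

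In complex V, 14 genes were above 0 and 3 below, with a median of 0.06 log2. The catalytic head of the enzyme is built from alternating alpha and beta subunits, whose differences had opposite signs and were not called. Atp5a1, the alpha subunit, lay at -0.24, -0.04 and 0.05 on deletion arrays and at -0.28, 0.15 and 0.21 on control arrays. Apart from control repeat 2 replicate 1, at -0.28, and control repeat 1 replicate 4, at 0.05, the control arrays lay above all deletion arrays. Of the 9 deletion arrays, 0 exceeded the average of the controls in the same repeat. The difference was -0.13 ± 0.06 log2 (unadjusted p = 0.047, adjusted p = 0.57 by limma), the same in both repeats to 2 decimals, and -0.20 ± 0.04 without the 2 control arrays high in oligodendrocyte markers (adjusted p = 0.46).

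Atp5a1 was measured by 3 probe sets that did not move together. The difference was -0.43 ± 0.12 log2 on 1420037_at (unadjusted p = 0.0037, adjusted p = 0.45 by limma over all probe sets), -0.02 ± 0.04 on 1449710_s_at and 0.06 ± 0.17 on 1423111_at. Their residuals had a median pairwise correlation of -0.06 over the 16 arrays. The low gene value thus rested on 1 of its 3 probe sets. Across the 49 members with several probe sets, 28 had probe sets on both sides of 0.

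Atp5b, the beta subunit, lay at -0.63, 0.04 and 0.24 on deletion arrays and at -1.11, -0.09 and 0.07 on control arrays. The difference was 0.25 ± 0.15 log2 (unadjusted p = 0.13), and 0.04 ± 0.12 without the 2 control arrays, of which control repeat 2 replicate 1 held the lowest value. Atp5g1, which encodes subunit c of the rotating ring, was at 0.14 ± 0.08, and Atp5g2 and Atp5g3, which encode the same mature subunit, were at 0.03 ± 0.05 and -0.01 ± 0.04. Atp5g2 was at 0.01 ± 0.06 and Atp5g3 at -0.05 ± 0.03 without the 2 control arrays.

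**Figure D2:**
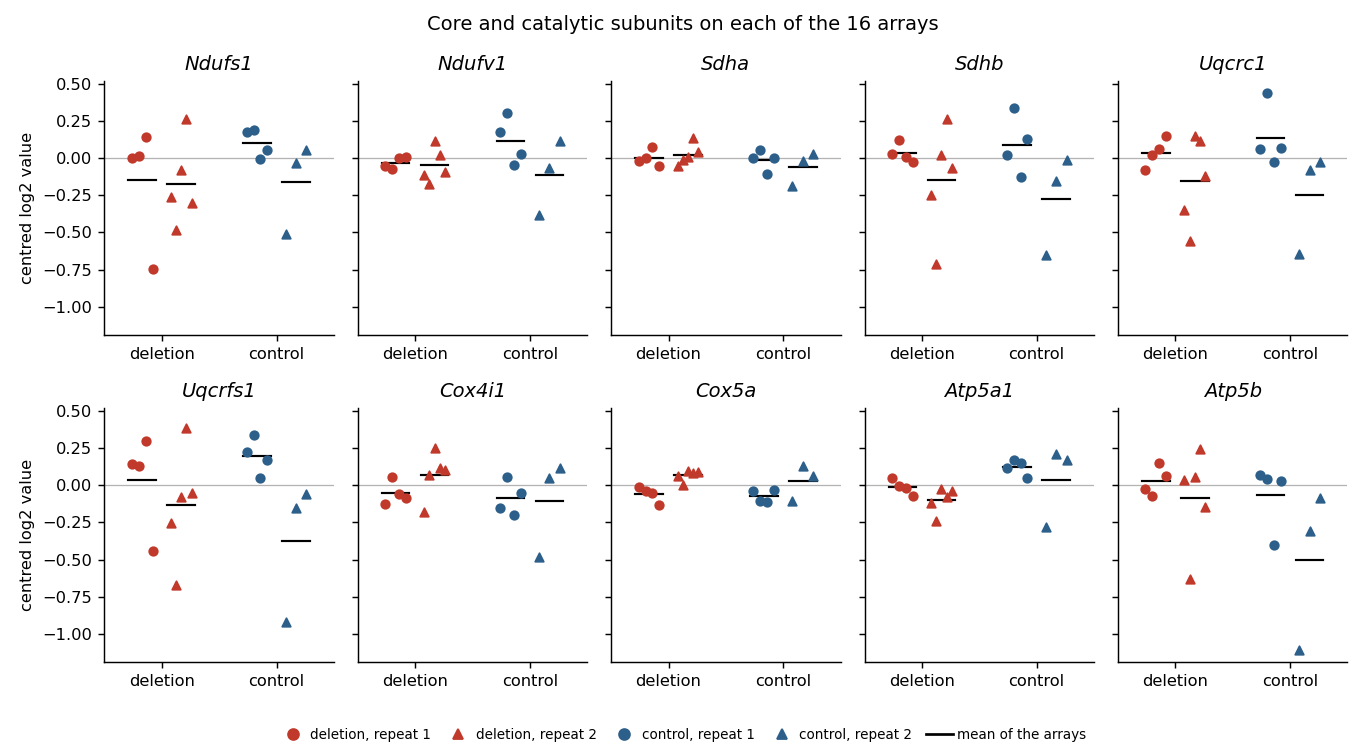
Centred log2 values of 10 core and catalytic subunits on each of the 16 arrays, with deletion left of control, circles for repeat 1, triangles for repeat 2 and black lines for the mean of each set. Deletion and control values overlap for every gene shown, and the lowest control triangle of Atp5b, at -1.11, is control repeat 2 replicate 1.

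The count of positive differences changed when a few arrays were left out. Over all 16 arrays 60 of 86 members were above 0, with a median of 0.03 log2, where 45.3% of all genes were above 0 and their median was -0.00. Without the 2 control arrays high in oligodendrocyte markers, 31 were above 0 and 55 below, with a median of -0.01, where 43.7% of all genes were above 0. The median of every complex was then lower: -0.03 for complex I, -0.00 for complex II, -0.05 for complex III, -0.01 for complex IV and 0.01 for complex V. All 6 core genes of complex I were then below 0, and none was called. Without the 2 arrays of highest 3′ minus 5′ signal, a choice made after the data were seen, 50 members were above 0 and 36 below. The part of oligodendrocyte RNA and of RNA quality in these differences was not tested.

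On single arrays the median over all members lay at -0.10, -0.03 and 0.14 in deletion mice (lowest, median and highest) and at -0.14, -0.03 and 0.08 in control mice. The lowest values were those of control repeat 2 replicate 1 and deletion repeat 2 replicate 2, the arrays with the highest 3′ minus 5′ signal. Complex II spread most, from -0.25 to 0.28 on deletion arrays and from -0.50 to 0.13 on control arrays. Complex IV spread least, from -0.07 to 0.08 on deletion arrays and from -0.08 to 0.08 on control arrays.

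**Figure D3:**
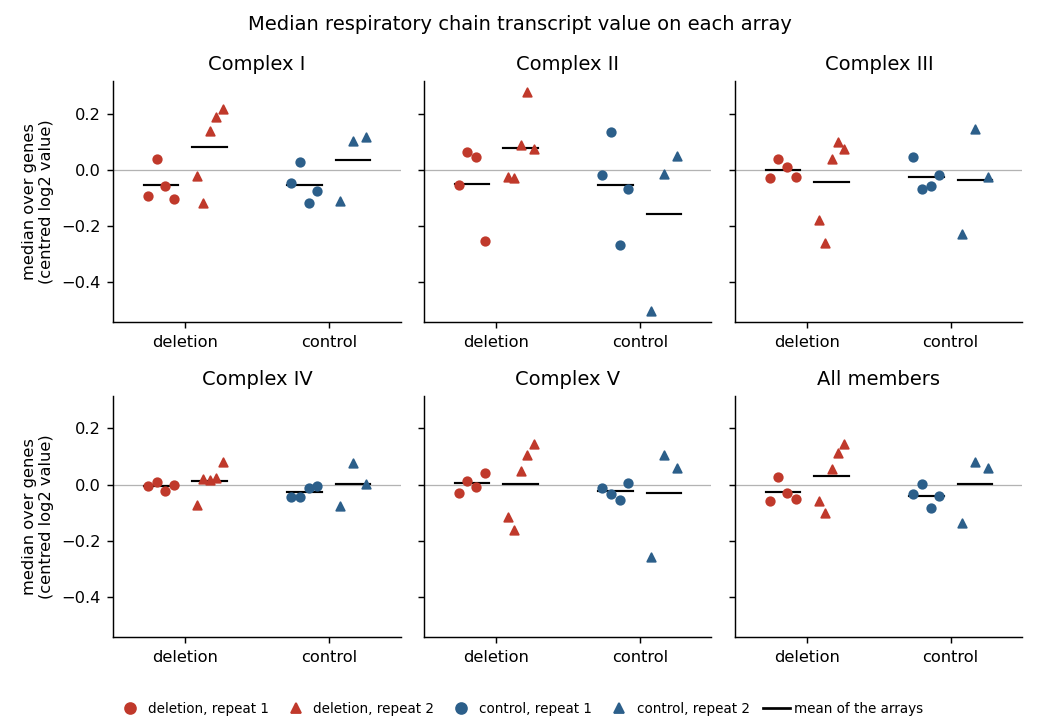
Median centred log2 value over the genes of each complex, and over all 86 members, on each array, with deletion left of control, circles for repeat 1, triangles for repeat 2 and black lines for set means. Deletion and control arrays overlap in every panel, and the lowest complex II point, at -0.50, is control repeat 2 replicate 1.

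The genotype difference was not shown to depend on the experimental repeat for any member. The interaction of genotype and repeat was called for 0 of 86 members, where 0% of all genes were called. At an unadjusted p under 0.05 there were 2 members, where 4.22% of all genes reached that level. Atp5mpl, a small membrane subunit of complex V, had the smallest p, with an interaction of -0.44 ± 0.19 log2 (unadjusted p = 0.041, adjusted p = 0.93 by limma). Its difference was -0.16 in repeat 2 and 0.27 in repeat 1, or 0.06 ± 0.11 over both and 0.01 ± 0.13 without the 2 control arrays high in oligodendrocyte markers. The other was Cox6a1, at -0.19 in repeat 2 and 0.14 in repeat 1, given with its isoform above. Cox8a had an interaction of larger size but also of larger error, -0.69 ± 0.32 (unadjusted p = 0.052). Over all members, 28 genes had a positive and 11 a negative difference in both repeats. The share over all genes is not given here. Each repeat held 1 of the 2 control arrays high in oligodendrocyte markers, without which 31 members were above 0 and 55 below over both repeats.

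The repeats themselves differed more than the genotypes did. Between repeat 2 and repeat 1, with genotype in the limma model, 12 of 86 members were higher, where 7.84% of all genes were higher, and 4 were lower, where 7.1% of all genes were lower. These shares of the members were 14.0% and 4.65%. Complex I held 10 of the 12 and 3 of the 4, and its median difference was 0.10 log2. Ndufa6 was higher by 0.48, Ndufb10 by 0.48, Ndufs5 by 0.45, Ndufa5 by 0.34, Ndufb3 by 0.30, Ndufs7 by 0.28 and Ndufb9 by 0.24. Ndufab1, the mitochondrial acyl carrier protein, was higher by 0.20, and Ndufb2 and Ndufc2 each by 0.17. The higher genes of complex IV were Cox7a1 (0.12) and Cox5a (0.11). Ndufaf4 was lower by 0.33, Ndufa4 by 0.22, Ndufa12 by 0.18 and Uqcrq, of complex III, by 0.20. No gene of complex II or V passed. Without the 2 arrays of highest 3′ minus 5′ signal, both from repeat 2, the counts were 22 higher and 1 lower. The share of all genes called in that fit is not given here, so this change is no result about the members.

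**Figure D4:**
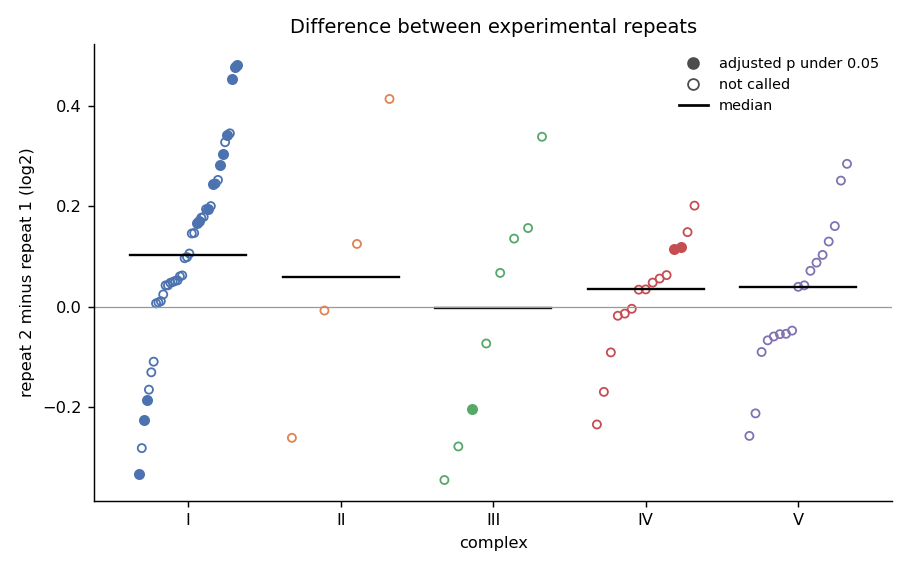
Difference between repeat 2 and repeat 1 (log2, genotype in the model) of each member, by complex. Filled points passed an adjusted p of 0.05 and black lines are medians, and most of the 12 called higher, up to 0.48, belong to complex I.

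A repeat difference of another size was seen for a single transcript of the mitochondrial genome. Of the 13 subunits encoded there, ND5, a proton-pumping subunit of complex I that is no member by the rule, was measured by 1 probe set and was followed after its values were seen. The others were not analysed here. ND5 lay at -2.24, -1.76 and -0.78 on the deletion arrays of repeat 2 and at -2.13, -1.92 and -0.37 on its control arrays. In repeat 1 it lay at 1.28, 1.87 and 3.52 on deletion arrays and at 0.37, 1.305 and 2.45 on control arrays. The repeats did not overlap, whereas the genotypes overlapped within each repeat. The difference between repeat 2 and repeat 1 was -3.36 ± 0.41 log2 (adjusted p = 0.00016 by limma), and that between deletion and control mice was 0.32 ± 0.42 (adjusted p = 0.94). The deletion minus control difference was 0.80 without the 2 control arrays high in oligodendrocyte markers.

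The members varied together from mouse to mouse. After genotype and repeat had been fitted, the residuals of 2 members over the 16 arrays had a median correlation of 0.38 over 3655 pairs, of which 81.1% were above 0. The same over all pairs of genes was 0.02, with 52.0% above 0. These correlations share arrays, RNA preparations and any array-wide quality difference, and are given as a description. A member correlated with the mean of the other members at a median of 0.65, and 59 of 86 exceeded 0.5. Other genes correlated with the member mean at a median of -0.11, and 12.4% exceeded 0.5. The closest were Ndufb11 (0.97), an accessory subunit of complex I, Atp5j (0.90), of the complex V stalk, and Ndufs3 (0.89), a core subunit of complex I.

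The common movement was uneven between complexes. Pairs within complex I had a median correlation of 0.48, within complex II 0.77, within complex III 0.38, within complex V 0.44 and within complex IV 0.11. Complexes I and II were at 0.53 with each other, complexes III and V at 0.48, and complexes II and IV at -0.01. The 6 members with a correlation below 0 with the mean of the others were Cox8b (-0.47), Cox7a1 (-0.44), Cox7c (-0.30), Cox7b2 (-0.29), Cox6b2 (-0.28) and Cox6a2 (-0.22). All belong to complex IV, and all but Cox7c are muscle or testis isoforms. Cox7c, Cox7b2, Cox6b2 and Cox8b are among the 7 members of least variation named above.

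The strength of the common movement depended on the arrays. The median pairwise correlation of the members was 0.32 without the 2 control arrays high in oligodendrocyte markers and 0.25 without the 2 arrays of highest 3′ minus 5′ signal. It was 0.59 within repeat 2, which held both of the last-named arrays, and 0.14 within repeat 1, which held neither. The part of RNA quality in this pattern beyond these values was not tested.

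**Figure D5:**
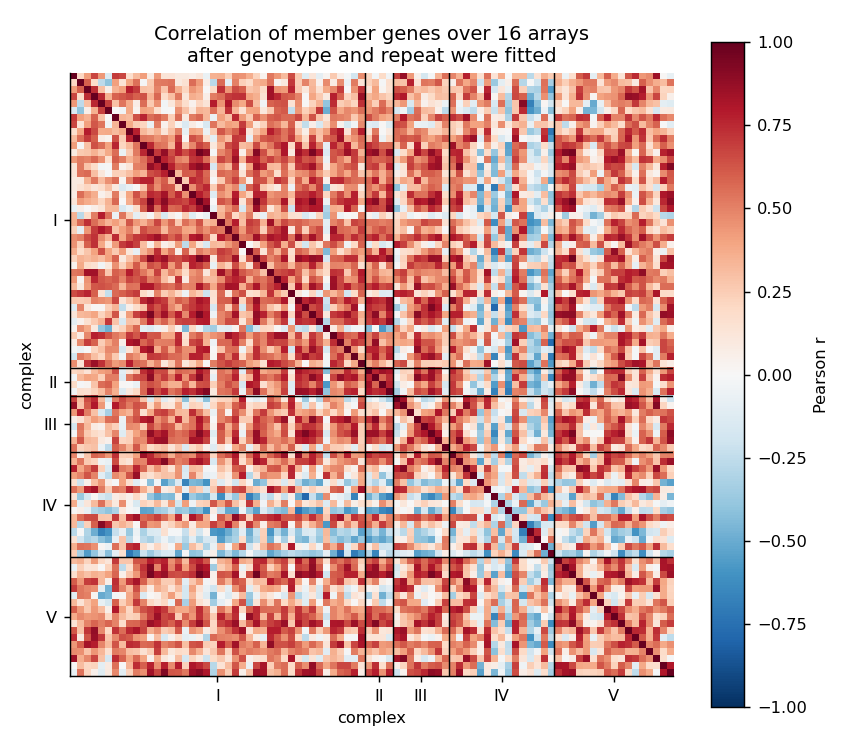
Pearson correlation of each pair of the 86 members over the 16 arrays after genotype and repeat were fitted, in order of complex and then symbol, from blue (-1) to red (1). Complexes I, II, III and V form a largely red field, with medians within complexes of 0.38 to 0.77, while complex IV, with 0.11, holds the blue bands.

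Promoters were examined for letters bound by factors known to drive nuclear respiratory genes, since the members moved together. RefSeq (GRCm38.p6) gave a window of 250 bases before to 50 after the start for 73 of the 86 genes. The motif of NRF-1, searched as GCGC, any 2 bases and GCGC, was found on either strand for 18 of 73 genes (24.7%). The share was 7.00% among all 27025 genes with a window. The motif CCGGAAG, of ETS factors such as GABP (NRF-2), was found in 19 (26.03%) against 9.93%, AAGATGGC, of YY1, in 10 (13.7%) against 3.19%, and TGACGTCA, of CREB, in 3 (4.11%) against 2.03%. These are shares of letter matches with no test, and a match is not a bound site. The 27025 genes were not limited to those measured here. They were not matched to the members in expression or base composition, so the shares do not show a trait particular to the members.

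The 4 members with both an NRF-1 and an ETS match were chosen after the search, as examples of the letters a nuclear respiratory promoter can carry. Members of strongest common movement were looked at first, and their matches are not given here. Of the 73 members with a window, 44 held a match to any of the 4 motifs. The 4 members shown come from complexes V, V, IV and II, and the capitals mark the matches, in forward or reverse orientation. The windows are those of Atp5h on chr11:115419870-115420169, Atp5k on chr5:108434350-108434649, Cox6a1 on chr5:115348909-115349208 and Sdhd on chr9:50603800-50604099, all on the minus strand and printed in the direction of the gene.
Atp5h: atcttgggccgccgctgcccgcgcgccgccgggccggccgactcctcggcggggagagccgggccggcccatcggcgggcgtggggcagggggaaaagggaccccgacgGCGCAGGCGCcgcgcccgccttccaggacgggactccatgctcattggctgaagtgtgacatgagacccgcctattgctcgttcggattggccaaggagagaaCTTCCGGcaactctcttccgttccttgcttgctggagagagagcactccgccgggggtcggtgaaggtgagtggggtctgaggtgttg
Atp5k: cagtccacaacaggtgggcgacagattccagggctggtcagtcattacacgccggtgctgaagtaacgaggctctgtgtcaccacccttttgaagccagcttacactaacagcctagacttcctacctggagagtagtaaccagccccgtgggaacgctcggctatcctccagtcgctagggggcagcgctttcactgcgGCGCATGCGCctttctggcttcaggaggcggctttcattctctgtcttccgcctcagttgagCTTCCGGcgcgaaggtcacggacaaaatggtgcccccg
Cox6a1: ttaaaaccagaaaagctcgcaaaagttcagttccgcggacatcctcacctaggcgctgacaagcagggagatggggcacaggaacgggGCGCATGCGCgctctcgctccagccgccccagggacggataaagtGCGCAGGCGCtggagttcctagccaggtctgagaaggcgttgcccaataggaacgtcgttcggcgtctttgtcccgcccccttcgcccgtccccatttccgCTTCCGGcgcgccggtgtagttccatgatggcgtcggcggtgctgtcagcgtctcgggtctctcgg
Sdhd: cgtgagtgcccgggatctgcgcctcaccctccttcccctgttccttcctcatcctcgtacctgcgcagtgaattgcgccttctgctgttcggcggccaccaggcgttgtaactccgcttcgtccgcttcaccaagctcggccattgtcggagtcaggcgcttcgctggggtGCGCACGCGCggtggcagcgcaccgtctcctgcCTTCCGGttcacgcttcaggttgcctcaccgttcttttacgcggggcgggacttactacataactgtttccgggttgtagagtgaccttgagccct

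Genes that work beside the respiratory chain were followed as lists, and none of their genes was called. Electron carriers and related proteins had a median difference of 0.12 log2 over 6 measured genes, and of 0.03 without the 2 control arrays high in oligodendrocyte markers. Cycs, cytochrome c, which carries electrons between complexes III and IV, had the smallest p of these, at 0.13 ± 0.05 (unadjusted p = 0.024, adjusted p = 0.50 by limma). It lay at -0.17, 0.05 and 0.14 on deletion arrays and at -0.40, -0.12 and 0.09 on control arrays, and 9 of 9 deletion arrays exceeded the average of the controls in the same repeat. Of 35 assembly factors outside the members, 25 were above 0 and 10 below, with a median of 0.06, and of -0.02 without those arrays. Sco1, a copper chaperone of complex IV, was at -0.47 ± 0.15 (adjusted p = 0.35 by limma) with deletion arrays at -0.46, -0.09 and 0.23 and control arrays at -0.43, 0.49 and 0.74, and Coa5, another assembly factor of complex IV, was at 0.22 ± 0.08. Cycs, Sco1, Coa5 and Suclg2 were named after their values were seen. Their differences without the 2 control arrays high in oligodendrocyte markers are not given here.

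Regulators of mitochondrial biogenesis, which include Ppargc1a, Nrf1 and Tfam, had a median of -0.01 log2 over 12 genes, with 6 on either side of 0. The 15 measured genes of the citric acid cycle and pyruvate dehydrogenase had a median of -0.02, with 6 above 0 and 9 below, and the 13 of glycolysis -0.04, with 3 above and 10 below. These medians were -0.03, -0.07 and -0.07 without the 2 control arrays. Suclg2, a subunit of succinyl-CoA ligase, was the only gene of these 3 lists at an unadjusted p under 0.05, at -0.21 ± 0.08.

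Markers of cells gave the following medians beside these values. They were 0.16 log2 for D1 neurons, with 5 of 6 genes above 0, and -0.37 for oligodendrocytes, with 12 of 12 below 0. D2 neurons were at -0.03 (2 genes above 0 and 2 below), astrocytes at -0.04 (3 and 5) and microglia at -0.12 (0 and 5). Vascular cells were at -0.16 over only 2 genes (1 and 1). Cortical glutamatergic neurons were at -0.22 (1 and 4) and striatal interneurons at -0.32 (1 and 3). Without the 2 control arrays high in oligodendrocyte markers, the medians were 0.10 for D1 neurons, 0.18 for D2 neurons, 0.07 for oligodendrocytes, 0.11 for astrocytes, -0.0049 for microglia, -0.19 for vascular cells, -0.17 for cortical glutamatergic neurons and -0.075 for striatal interneurons. No marker gene was called. At an unadjusted p under 0.05 by limma, the D1 markers Drd1, Pdyn and Slc35d3 were higher, where 4.97% of all genes were. Penk (D2 neurons), Olig2 (oligodendrocytes), Esam (vascular cells) and Slc17a7 (cortical glutamatergic neurons) were lower, where 3.71% of all genes were. The part of cell content in the members' values was not tested.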

How the data were processed

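Ribosome-bound RNA of 16 mice was hybridised to Affymetrix mouse arrays. Per the submitters' processing notes, GCOS 1.4 and GCRMA were used. The deposited values are log2 expression. As the values show, the authors had set every probe set's median to 0, so no level and no filter on level remained. A deposited p-value per probe set is, per the file headers, the one for genotype in a 2-factor analysis. An ordinary 2-factor model with interaction gave the same p-values for the members to within 2.8e-06. A further 16 columns of values in that table equal the value table and were not used.

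The 62 control probe sets were left out. The platform annotation gave 1 symbol for 29680 probe sets, several for 819 and none for 6613. RefSeq (GRCm38.p6) supplied current symbols by gene identifier. A gene was the mean of its probe sets, and 9 probe sets that name a member beside another gene were left out. ND5 was matched through its RefSeq name. Tests used limma 3.58.1 (R 4.3.3; lmFit and eBayes) on 13 residual degrees of freedom, two-sided, over all probe sets or genes. SE and 95% intervals are those of the fit. The script was tested on simulated data.

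Genotype, repeat and replicate came from the titles. Replicate numbers were not used to pair the samples. Deviations of same-numbered arrays correlated at -0.30 to 0.43. Differently numbered arrays were not compared, so these values cannot decide whether the numbers mark pairs. Named genes were the 5 members with the smallest p in each direction, the extremes of each complex, the largest interaction t, 10 core subunits and isoform pairs, and genes named outside this rule are given as such or as members of a called set. The members and lists were chosen with earlier results of these data known, and lists were described by counts and medians, with no set test. Alternatives covered terms, samples, normalization, variance, array weights and choice of probe sets.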

Additional observations from a re-analysis of the deposited data

Results flagged for a closer look

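Among 66 sets of 9 deletion or 7 control values of named genes and complex medians, 8 held an array far from the others of its group by Dixon's criterion, which chance alone reaches in about 1 in 20 sets. On deletion repeat 2 replicate 2 Atp5g1 was at -0.36 (next -0.07), Atp5b at -0.63 (next -0.14) and Cox8b at 0.16 (next 0.04). On deletion repeat 1 replicate 4 Cox6b2 was at 0.18 (next 0.04). On control repeat 2 replicate 1 Atp5a1 was at -0.28 (next 0.05), Ndufs1 at -0.51 (next -0.03), Atp5b at -1.11 (next -0.40) and Uqcrfs1 at -0.92 (next -0.15). The 2 repeat 2 arrays, which hold 7 of the 8, are those with the highest 3′ minus 5′ signal, at 1.17 and 1.82, and the part of RNA quality in these values was not tested.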

How the results depend on the processing

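The count of called members was 0 in every alternative run, for genes, probe sets and the interaction. Over all 16206 genes, deletion against control, 0 were called in either repeat alone and 1 with the replicate block. The count over all genes was 1 without the 2 control arrays high in oligodendrocyte markers and 16 with array weights. With so few calls, 0 of 86 members tells little about the members. The complex medians moved by less than the spread between arrays. Without those 2 control arrays, however, the medians of complexes I to IV went from above to below 0. A replicate block used numbers not known to pair the samples. With it, 1 member was higher at an unadjusted p under 0.05 (Ndufb10, where the main analysis had 0) and 1 was lower, Ndufb7 in place of Atp5a1. The count higher was 1 in repeat 1 alone, 2 in repeat 2 alone, 4 with array weights, 2 with the most variable probe set of each gene and 1 without the 2 arrays highest in 3′ minus 5′ signal, which were left out after the data were seen. The count lower (1, Atp5a1) was 2 in repeat 1 alone, 2 without the 2 control arrays high in oligodendrocyte markers, and 0 in repeat 2 alone, without the 25% of genes lowest in residual SD, with ordinary variance, with array medians subtracted, with the most variable probe set and without _x_at and _s_at probe sets. Leaving out single arrays gave 0 to 3 higher and 0 to 1 lower. Between repeats, 20 members were higher with array weights and 22 without the 2 arrays of high 3′ minus 5′ signal (12 in the main analysis), and 2 were lower without _x_at and _s_at probe sets and 1 without those 2 arrays (4). Leaving out single arrays gave 8 to 18 higher and 3 to 5 lower, and a median over all members of -0.0048 (without control repeat 2 replicate 1) to 0.054. Shares of all genes are not given here for the alternative counts at an unadjusted p or between repeats. These counts are thus no result about the members.

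No named gene was called in any alternative, but signs changed as follows, also for members with the largest differences of their complexes (Atp5a1, Cox8a, Uqcrc2, Uqcr10 and Cox4i1). With the most variable probe set Atp5a1 was at 0.057, Uqcrc2 at 0.00072 and Ndufv1 at 0.10. In repeat 1 alone Cox8a was at 0.20, Sdhb at -0.056, Uqcrfs1 at -0.16, Cox6a1 at 0.14, Cox6b1 at 0.020 and Cox8b at -0.0014. In repeat 2 alone Uqcrc2 was at 0.014, Uqcr10 at -0.11, Atp5mpl at -0.16, Ndufv1 at 0.062, Uqcrc1 at 0.096, Cox6b2 at -0.011 and Cox7a2 at -0.071. Without the 2 control arrays Cox4i1 was at -0.0076, Sdhb at -0.10, Uqcrfs1 at -0.13, Cox5a at -0.012, Cox6a2 at 0.093, Cox7a2 at -0.036 and Cox8b at -0.0018. With the replicate block Sdhb was at -0.049, Uqcrfs1 at -0.075 and Cox7a2 at -0.025. With no repeat term Sdhb was at -0.0016 and Uqcrfs1 at -0.010. With array weights Uqcrc1 was at 4.53e-05, Uqcrfs1 at -0.0004315, Cox6a1 at 0.018 and Cox8b at -0.0069. With quantile normalization Sdhb was at -0.0034, Uqcrfs1 at -0.0029 and Cox6a2 at 0.0075. Without the 2 arrays of high 3′ minus 5′ signal Sdhb was at -0.0031, Uqcrfs1 at -0.057, Cox6a1 at 0.0066 and Cox8b at -0.010. Single arrays left out gave ranges of -0.060 to 0.092 for Sdhb, -0.10 to 0.050 for Uqcrc1, -0.11 to 0.12 for Uqcrfs1, -0.0031 to 0.046 for Cox5a, -0.062 to 0.029 for Cox6a1, -0.12 to 0.066 for Cox6a2, -0.0026 to 0.031 for Cox6b2, -0.026 to 0.065 for Cox7a2 and -0.0094 to 0.017 for Cox8b. The cause of these changes was not tested.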
